A study of Mus musculus with 15 samples.

Results

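D-EPSCs and L-EPSCs are mouse cells of expanded potential, that is, stem cells kept in media meant to let them enter both embryonic and extraembryonic lineages. The comparison here was between the H3K4me1 peaks of these 2 culture conditions. All 102751 peaks of the D-EPSC list and all 105306 peaks of the L-EPSC list were taken, 208057 of the 439369 peaks in the 6 lists of the series, and a peak was called unshared where no base of it lay under a peak of the other list. Both cell types were derived from J1 embryonic stem cells (ESCs) of the 129SV strain by passage in the respective medium, so all values describe 1 parental line. D-EPSCs grew in N2B27 with 5% knockout serum replacement (KSR), LIF at 1000 units/mL, the GSK3 inhibitor CHIR99021 at 3 µM, and dimethindene maleate and minocycline at 2 µM each. L-EPSCs grew in DMEM/F12 with 20% KSR, LIF at 1000 units/mL, CHIR99021 at 3 µM, the MEK inhibitor PD0325901 at 1 µM, the Src family inhibitor A-419259 at 0.3 µM, the tankyrase inhibitor XAV939 at 5 µM, JNK inhibitor VIII at 4 µM and the p38 inhibitor SB203580 at 10 µM. The ESCs, whose lists are used for reference, grew with 15% fetal bovine serum, LIF at 1000 units/mL, CHIR99021 at 3 µM and PD0325901 at 1 µM. LIF and CHIR99021 were thus common to all 3 media and the MEK inhibitor to ESCs and L-EPSCs, whereas the Src, tankyrase, JNK and p38 inhibitors were in the L-EPSC medium alone and dimethindene maleate and minocycline in the D-EPSC medium alone. Each list came from 2 chromatin immunoprecipitation samples but was deposited as 1 set of positions without heights. There was thus no replicate of a list, no test could be made, and every difference is a description of 2 lists. Read depth is unknown, and its part in the size of the lists was not tested.

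H3K4me1, monomethylation of lysine 4 of histone H3, marks enhancers, whether they are active or merely primed, and also flanks the starts of genes, where the trimethylated form takes over the centre. H3K27ac, acetylation of lysine 27, is found in addition at enhancers and promoters that are active. Peaks that reached within 1 kb of the 5′ end of a protein-coding gene are called start-site peaks and all others distal peaks. Gene positions are those of GENCODE M1 on mm9.

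Start-site peaks found in 1 condition only lay at promoters of different CpG content, and 5 of the widest, picked to show this, are given. Each line gives the 120 bases centred on the 5′ end of the gene in the direction of transcription, in mm9, with CpG dinucleotides in capitals. The first 3 genes had a peak in D-EPSCs only and the other 2 in L-EPSCs only.
Mas1, chr17:13060950-13061069, minus strand: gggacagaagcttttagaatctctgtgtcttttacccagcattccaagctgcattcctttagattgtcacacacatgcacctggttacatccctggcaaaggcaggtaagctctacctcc
Cd247, chr1:167718752-167718871, plus strand: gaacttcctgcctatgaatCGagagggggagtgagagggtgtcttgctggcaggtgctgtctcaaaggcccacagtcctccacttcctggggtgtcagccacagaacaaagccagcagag
Runx2, chr17:44951687-44951806, minus strand: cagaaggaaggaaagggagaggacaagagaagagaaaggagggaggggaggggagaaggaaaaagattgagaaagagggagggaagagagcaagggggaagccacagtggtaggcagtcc
Rpl39l, chr16:10170259-10170378, plus strand: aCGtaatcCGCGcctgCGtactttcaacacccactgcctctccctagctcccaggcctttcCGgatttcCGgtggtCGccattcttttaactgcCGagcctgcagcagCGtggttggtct
Cldn18, chr9:99617627-99617746, minus strand: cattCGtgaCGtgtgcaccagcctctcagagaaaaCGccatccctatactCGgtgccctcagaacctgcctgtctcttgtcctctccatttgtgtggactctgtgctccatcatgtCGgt
The 3 D-EPSC-only promoters held 0, 1 and 0 CpG in these bases and the L-EPSC-only promoters 9 and 5. Not every L-EPSC promoter was of this kind, since Scp2 held 0 and Cfd and Sfta2 1 each. Over 1001 bases around the start, the 298 genes with a start-site peak in D-EPSCs only had a median of 16 CpG and the 513 genes with one in L-EPSCs only a median of 24, beside 59 for the 14695 genes with a peak in both and 8 for the 6844 with none. At least 20 CpG were present in 31.2% of the D-EPSC-only and 57.9% of the L-EPSC-only starts. Over all 22350 genes the median was 41 CpG and 65.3% had at least 20, so both classes lay below the average gene.

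Distal unshared peaks of the whole lists differed in the share that held certain motifs, and 150-base stretches from 6 of the 16 widest isolated ones show what such matches look like. Capitals mark every match to the Klf (CCACACCC), Esrrb (TCAAGGTCA), TEAD (CATTCCA), T-box (AGGTGTGA), ETS (CCGGAAG) and Otx (GGATTA) letters on either strand, and the stretch is the one with most such bases in its peak, in mm9 on the plus strand. The motifs were picked after their shares were known and the 6 stretches after their matches were seen, so they do not stand for the lists. Trio and Gpc3 carry the peak in an intron and belong to D-EPSCs, while the Qk, Spock1, Pabpc6 and Spata16 peaks belong to L-EPSCs.
Trio, chr15:27896046-27896195, plus strand: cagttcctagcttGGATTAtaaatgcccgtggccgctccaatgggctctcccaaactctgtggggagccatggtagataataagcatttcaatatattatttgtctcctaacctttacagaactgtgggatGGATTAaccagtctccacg
Gpc3, chrX:49930116-49930265, plus strand: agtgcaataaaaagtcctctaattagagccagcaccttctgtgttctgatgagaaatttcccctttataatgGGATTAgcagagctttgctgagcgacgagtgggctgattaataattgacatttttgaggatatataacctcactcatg
Qk, chr17:10340971-10341120, plus strand: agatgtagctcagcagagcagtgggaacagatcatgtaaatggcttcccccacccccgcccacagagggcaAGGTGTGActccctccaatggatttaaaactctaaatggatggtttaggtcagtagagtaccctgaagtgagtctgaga
Spock1, chr13:57657834-57657983, plus strand: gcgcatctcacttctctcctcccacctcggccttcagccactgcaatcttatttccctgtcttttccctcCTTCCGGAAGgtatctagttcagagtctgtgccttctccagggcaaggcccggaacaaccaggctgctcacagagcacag
Pabpc6, chr17:9993656-9993805, plus strand: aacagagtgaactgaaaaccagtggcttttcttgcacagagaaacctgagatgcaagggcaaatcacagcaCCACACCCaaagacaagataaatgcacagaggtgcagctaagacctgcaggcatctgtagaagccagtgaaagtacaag
Spata16, chr3:26507468-26507617, plus strand: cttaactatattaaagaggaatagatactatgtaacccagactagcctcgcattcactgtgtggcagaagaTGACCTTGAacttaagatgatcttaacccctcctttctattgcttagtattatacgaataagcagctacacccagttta
The Trio stretch holds 2 Otx matches and the Gpc3 stretch 1. The Spata16 stretch holds the Esrrb letters, the Pabpc6 stretch a Klf match and the Qk stretch a T-box match, and in Spock1 a pair of ETS matches on opposite strands overlap. Over the stretches of all 16 peaks, the Otx letters were in 2 of 8 D-EPSC and 3 of 8 L-EPSC stretches. The Klf letters were in 1 and 2, the TEAD letters in 1 and 2, and the Esrrb letters in 0 and 1. The ETS letters were in 2 and 1, and the T-box letters in 1 each. Klf, TEAD and Esrrb thus went the same way as over all distal unshared peaks, and Otx and ETS the other way. With 8 stretches per list, these counts are too small to judge a difference.

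The 2 conditions shared most of the marked genome. The D-EPSC peaks covered 187.5 Mb and those of L-EPSCs 173.1 Mb, and 141.5 Mb lay under both, which was 75.5% of the D-EPSC and 81.7% of the L-EPSC bases. Unshared peaks numbered 18027 (17.5%) in the D-EPSC list and 18144 (17.2%) in the L-EPSC list. Almost all of them were distal, 17652 of the former and 17638 of the latter, which made 21.1% and 20.5% of the distal peaks. At start sites 375 D-EPSC and 506 L-EPSC peaks were unshared, 1.96% and 2.65% of the start-site peaks. This order turned when 50% of a peak had to be covered by the other list, to 1721 and 967, when an overlap had to be 50% of both peaks, to 4777 and 4356, and when both lists were limited to peaks of at least 500 bp, to 695 and 595. More of the difference in bases lay within shared peaks than in unshared peaks. Parts of shared peaks that the other list did not cover summed to 34.3 Mb for D-EPSCs but 20.6 Mb for L-EPSCs, whereas unshared peaks summed to 11.7 Mb and 11.01 Mb. Such parts can lie at the ends of a peak or inside it, since 5457 D-EPSC and 3872 L-EPSC peaks met at least 2 peaks of the other list.

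Unshared peaks were narrow. Their median width was 521 bp for D-EPSCs and 490 bp for L-EPSCs, compared with 1348 bp and 1249 bp for shared peaks. Of the distal peaks of 200 to 400 bp, 54.7% (D-EPSC) and 53.5% (L-EPSC) were unshared, and of those over 5000 bp 0.18% and 0.20%. Peaks just inside and outside the 1 bp rule were few: 337 D-EPSC peaks and 325 L-EPSC peaks were shared by 100 bp or less, and 161 and 153 were unshared with a peak of the other list within 100 bp.

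**Figure D1:**
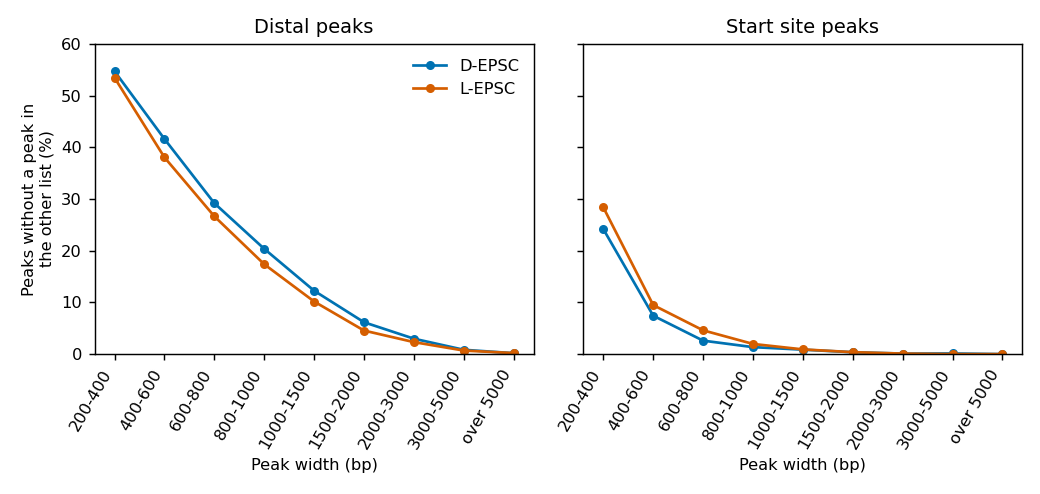
Share of H3K4me1 peaks without a peak in the other list (y axis, percent) by peak width (x axis, bp) for distal peaks (left) and start-site peaks (right). Points are the D-EPSC list (blue) and the L-EPSC list (orange), 1 list each, and both fall from over 50% at the narrowest distal peaks to under 1% at the widest.

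Few unshared peaks carried H3K27ac. In D-EPSCs 4.69% of the unshared peaks overlapped an H3K27ac peak of the same cells, and in L-EPSCs 4.50%, against 25.9% and 20.7% of the shared peaks. The H3K27ac lists themselves differed in size, with 44.4 Mb for D-EPSCs and 34.3 Mb for L-EPSCs. Of the D-EPSC-only peaks 57.3% and of the L-EPSC-only peaks 43.4% also had an H3K4me1 peak in the ESCs from which both cell types came. Among shared peaks these shares were higher, 88.3% and 88.8%. At start sites the unshared peaks had an ESC peak in 46.1% and 25.7%, against 90.5% and 91.1% of the shared ones. The part of the narrower width of unshared peaks in these overlaps was not tested.

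The position of distal unshared peaks differed between the conditions. In D-EPSCs 54.9% of them had their centre in an intron and 39.1% outside protein-coding genes, and in L-EPSCs 39.0% and 56.3%. Distal shared peaks were in between, with 46.0% and 46.8% in introns. The median distance to the nearest gene start was 25070.5 bp for D-EPSC-only and 46329.5 bp for L-EPSC-only distal peaks, and 16.9% and 28.4% lay over 100 kb away. L-EPSC-only peaks also stood farther from the other list, with a median gap of 6236.5 bp against 3501 bp and 37.6% against 21.6% beyond 10 kb. L-EPSC-only peaks thus lay more often in stretches where D-EPSCs had no peak at all. Of the D-EPSC peaks on the X chromosome 25.4% were unshared, and of the L-EPSC peaks 21.7%. D-EPSCs covered more bases on every chromosome, by a log2 ratio of 0.03 on chromosome 6 to 0.22 on X. The ratio of unshared peaks varied more, from −0.50 on chromosome 6 to 0.48 on chromosome 11.

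At gene starts the L-EPSC peaks reached closer to the start itself and the D-EPSC peaks extended farther away. At 550 bp downstream of the start, 33.1% of 22350 protein-coding genes lay under a D-EPSC peak and 41.1% under an L-EPSC peak, a difference of −7.98 percentage points. At 2550 bp downstream the order was turned, with 29.9% against 23.5%, and at 1450 bp upstream it was 29.0% against 23.8%. The first base of the gene was covered in both for 5300 genes, in L-EPSCs only for 1797 and in D-EPSCs only for 563. Of the 1797 genes, 1625 still had a D-EPSC peak within 1 kb, and 659 had H3K27ac at the start in L-EPSCs. The 1797 starts held a median of 53 CpG in 1001 bases and the 563 starts 32. ESCs had the widest gap at the start, with 11.2% of genes covered 50 bp downstream against 26.3% in D-EPSCs and 31.7% in L-EPSCs.

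**Figure D2:**
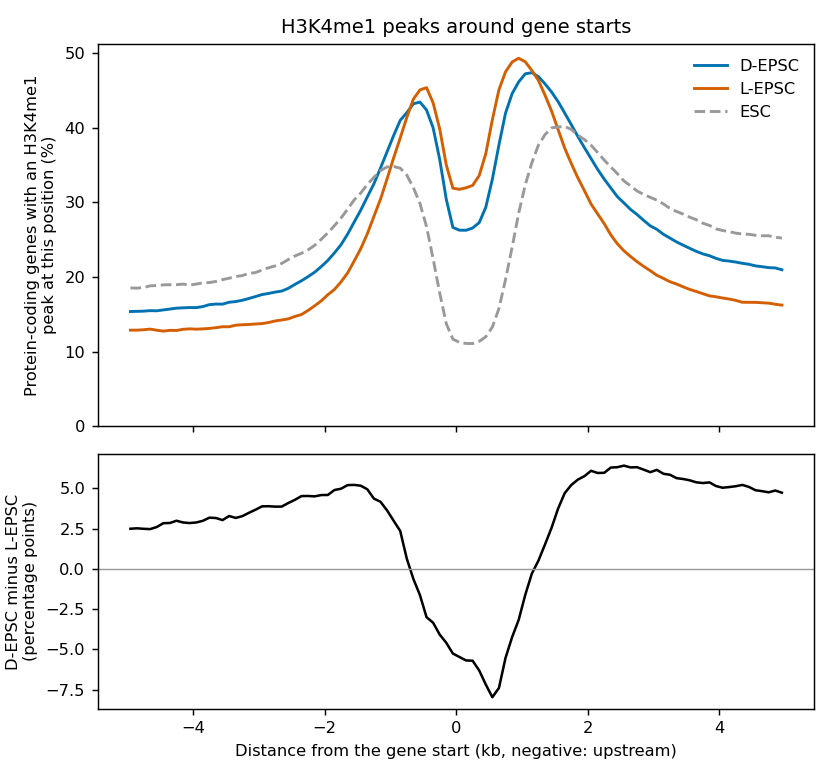
Share of 22350 protein-coding genes with an H3K4me1 peak (top, y axis in percent) and the D-EPSC minus L-EPSC difference (bottom, percentage points) by distance from the gene start (x axis, kb). Lines are the D-EPSC (blue), L-EPSC (orange) and ESC (grey, dashed) lists. The difference is negative from 650 bp upstream to 1150 bp downstream of the start, lowest at −7.98 points, and positive beyond.

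Counted by gene, 298 starts (1.33% of all genes) had an H3K4me1 peak within 1 kb in D-EPSCs only and 513 (2.30%) in L-EPSCs only. An H3K27ac peak of the same cells lay in the same window at 28 of the former and 119 of the latter. Of the 14695 starts with a peak in both, 7682 had D-EPSC and 6259 had L-EPSC H3K27ac, which were larger shares. The 506 unshared L-EPSC start-site peaks overlapped D-EPSC H3K27ac in 8.89% and L-EPSC H3K27ac in 7.51%. For the 375 unshared D-EPSC ones these values were 5.33% and 1.33%. The widest D-EPSC-only start-site peaks without an L-EPSC peak within 5 kb belonged to Ctxn3, Mas1, Cd247, Gm17239, B130006D01Rik, Serpinb13 and Runx2. The Ctxn3 peak, at 4564 bp the widest, ran over the gene start and carried H3K27ac in D-EPSCs, and no L-EPSC peak lay within 62584 bp. Mas1, which encodes the receptor for angiotensin 1-7, had a 2874 bp peak at chr17:13061266-13064139, just upstream. Cd247 encodes the zeta chain of the T cell receptor, and its peak of 1601 bp, chr1:167718789-167720389, lay over the start. Runx2, the osteoblast transcription factor, had a peak of 1360 bp over the start at chr17:44950999-44952358. It is annotated under 2 identifiers with the same start, so the 8 entries that the rule picked are 7 genes. All of these peaks were also in the ESC list, and 2 of the 7, those of Ctxn3 and Gm17239, carried D-EPSC H3K27ac.

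The corresponding L-EPSC genes were Rpl39l, Cldn18, Cfd, Srpk3, 4921513D11Rik, 1700048O20Rik, Sfta2 and Scp2. The Rpl39l peak, 2922 bp at chr16:10170880-10173801, lay in the body of this ribosomal protein gene within 1 kb of its start, and the nearest D-EPSC peak was 21835 bp away. Cldn18, which encodes a tight-junction claudin of lung and stomach, had a peak of 2634 bp at chr9:99615442-99618075, over the start. Cfd, complement factor D, had a peak of 2078 bp that began inside the gene and ran past its end, and the sterol carrier gene Scp2 a peak of 1551 bp over the annotated start. None of these 8 peaks carried L-EPSC H3K27ac, and 3 of the 8, at Cldn18, Cfd and 4921513D11Rik, were in the ESC list, whereas all 7 D-EPSC peaks were. In all, 114 D-EPSC and 226 L-EPSC gene entries met the same conditions.

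The widest isolated distal peaks, with no peak of the other list within 10 kb, were longer in L-EPSCs. There were 3828 such peaks among the D-EPSC and 6660 among the L-EPSC peaks. The widest in D-EPSCs covered 4976 bp of an intron of Trio (chr15:27894082-27899057), a guanine nucleotide exchange factor, and carried D-EPSC H3K27ac. The second, 3303 bp at chr11:95608032-95611334, overlapped an exon and an intron of Zfp652, within which the start-site peak of B130006D01Rik also lies. Another of 2692 bp lay 23832 bp from Dusp4 (chr8:35843828-35846519), a phosphatase that dampens ERK signaling. The remaining 5 were near 1700007G11Rik and Dstn and in or across exons or introns of Anks1b, Gpc3 and Wdr43, with widths of 2493 to 3183 bp.

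In L-EPSCs the widest was 6812 bp at chr17:10339484-10346295, 53041 bp from Qk, which encodes an RNA-binding protein. The next, 6743 bp at chr6:88637690-88644432, lay 29974 bp from Mgll, the monoacylglycerol lipase gene. Those near 5031414D18Rik, Akr1c6 and St8sia4 spanned 4341, 4338 and 3847 bp, that in an intron of Spock1 3696 bp, and those near Pabpc6 and Spata16 3566 and 3470 bp. L-EPSC H3K27ac was present on 7 of these 8 peaks, all but the Pabpc6 one, while D-EPSC H3K27ac was present on 2 of the 8 D-EPSC peaks, Trio and Dstn. Over all distal unshared peaks the shares with H3K27ac of the same cells were close, 4.42% in L-EPSCs and 4.67% in D-EPSCs. The widest peaks thus do not stand for the lists in this respect. The Akr1c6 peak also carried H3K27ac in D-EPSCs although it had no H3K4me1 peak there. The St8sia4 and Spata16 peaks were farthest from any D-EPSC peak, by 163300 and 224346 bp.

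The Akr1c6 and St8sia4 peaks held copies of the same sequence. They shared 154 words of 24 letters, and the next highest number among the 120 pairs of the 16 peaks was 18. The most alike stretch, in mm9, is shown with equal bases in capitals and different ones in lower case.
Akr1c6, chr13:4401189-4401338, plus strand: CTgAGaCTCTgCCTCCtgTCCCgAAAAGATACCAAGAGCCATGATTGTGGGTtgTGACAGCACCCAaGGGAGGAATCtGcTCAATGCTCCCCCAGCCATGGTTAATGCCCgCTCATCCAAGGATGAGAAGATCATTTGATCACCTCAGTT
St8sia4, chr1:97396656-97396805, minus strand: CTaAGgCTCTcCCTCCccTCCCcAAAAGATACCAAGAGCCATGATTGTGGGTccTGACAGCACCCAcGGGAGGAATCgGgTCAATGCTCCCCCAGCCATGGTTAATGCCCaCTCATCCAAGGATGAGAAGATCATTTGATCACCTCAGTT
Of these 150 bases 138 were equal. Sequence of this kind was not confined to the pair. Another 36 of the 6822 isolated L-EPSC peaks (start-site peaks included) shared at least 50 such words with the St8sia4 peak, as did 7 of the 3889 isolated D-EPSC peaks. For the Mgll, 5031414D18Rik and Akr1c6 peaks the numbers were 16, 15 and 6 in L-EPSCs and 0 in D-EPSCs. Reads from such copies can be placed at more than 1 position, and how they were placed was not stated, so the part of alignment in these peaks was not tested.

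Matches to 22 short motifs were counted in the centre of each distal peak, 150 bases to either side of its midpoint. In L-EPSC-only peaks the Klf letters were present in 8.99%, compared with 4.67% in D-EPSC-only and 6.19% in shared L-EPSC peaks. Esrrb letters were in 2.74% against 1.29% and 1.90%, T-box letters in 2.17% against 1.43% and 1.55%, and TEAD letters in 6.24% against 4.92% and 5.24%. Klf factors and Esrrb belong to the naive pluripotency network and TEAD proteins are the partners of Yap in the Hippo pathway. The median GC content of these windows was 48.5% in both L-EPSC classes and 46.8% in D-EPSC-only peaks, so base composition moved with the comparison of conditions but not with that of L-EPSC-only and L-EPSC shared peaks. Among unshared distal peaks with H3K27ac of the same cells, 779 in L-EPSCs and 825 in D-EPSCs, the Klf shares were nearly equal, 2.82% and 2.67%. There the T-box shares were in the other order, 1.28% and 1.82%, from 10 and 15 peaks.

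In D-EPSC-only peaks the Otx letters were present in 15.9%, against 8.78% in L-EPSC-only peaks and 11.5% in shared D-EPSC peaks. The Otx letters also lie within GGGATTAAA, which belongs to the consensus of the B1 repeat, a short interspersed element of the mouse genome. These 9 letters were found in 4.96% of D-EPSC-only and 1.66% of L-EPSC-only distal windows, and without matches inside them the Otx shares were 11.3% and 7.25%. AP-1 letters (TGANTCA) were in 10.2% against 8.99% and Tcf/Lef letters (CTTTGAT) in 5.31% against 4.82%. Among unshared distal peaks with H3K27ac of the same cells, the AP-1 shares were 15.2% and 11.6%. There the Tcf/Lef shares were in the other order, 4.73% in D-EPSCs and 5.65% in L-EPSCs, from 39 and 44 peaks. Sox letters (CTTTGTT) were in 9.67% and 10.0% and the octamer of Oct factors (ATGCNAAT) in 5.36% and 5.22%, so motifs of the core pluripotency factors were about as frequent in both. Of all 22 motifs, 14 had the higher share in L-EPSC-only peaks. A match is a string of letters and no evidence that a factor was bound.

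**Figure D3:**
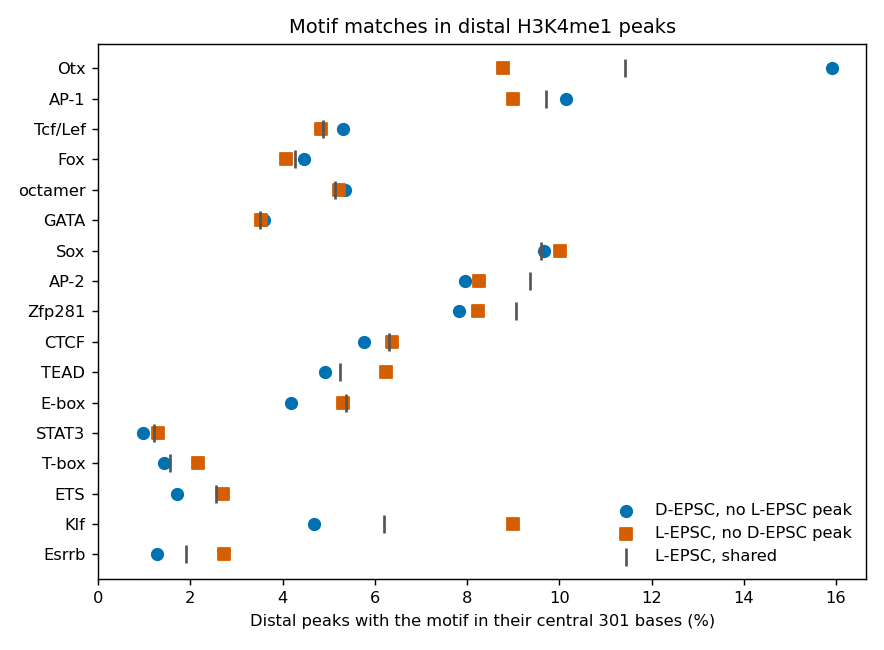
Share of distal H3K4me1 peaks with a motif match within 150 bases of the peak centre (x axis, percent) for the motifs present in at least 1% of shared peaks (y axis). Circles are D-EPSC-only peaks, squares L-EPSC-only peaks and bars shared L-EPSC peaks, and the widest separations are Otx (15.9% against 8.78%) and Klf (4.67% against 8.99%).

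By gene, distal coverage was the sum of bases under peaks in the gene and 10 kb on either side, outside all start-site windows. A gene was called where 1 condition had at least 1.5 times the bases of the other and at least 2 kb. This was so for 3790 genes (17.0%) in the D-EPSC direction and 819 (3.66%) in the L-EPSC direction. D-EPSC peaks cover more of the genome, and a call toward L-EPSCs therefore had to go against the overall difference. When only the widest D-EPSC peaks were kept, down to the bases of the L-EPSC list, the numbers were 2904 and 1436. That setting only takes D-EPSC peaks away, so by construction no call toward L-EPSCs could be lost and none toward D-EPSCs gained. Not every gene could be called, because 14812 of the 22350 had 2 kb in at least 1 condition, and of these 25.6% were called toward D-EPSCs and 5.53% toward L-EPSCs.

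The largest D-EPSC differences were at Tle4, Ext1, Cdyl, Chd9, Bnc2, Znrf3, Jmjd1c and Lef1. Tle4 (chr19:14522562-14672473), a Groucho corepressor that binds Tcf/Lef factors, had 77.2 kb of distal H3K4me1 under D-EPSC peaks but 26.6 kb under L-EPSC peaks, and 7 of its 19 D-EPSC peaks were unshared while none of its 19 L-EPSC peaks was. Ext1 (chr15:52895593-53177714), a heparan sulfate polymerase, had 102.0 against 55.5 kb. The chromatin genes Cdyl, Chd9 and Jmjd1c had 95.5 against 57.5, 82.8 against 46.1 and 73.2 against 44.6 kb. Znrf3, which removes Wnt receptors from the membrane, had 55.2 against 26.2 kb, and Lef1 (chr3:130813389-130927274), a nuclear effector of Wnt signaling, 41.1 against 12.8 kb. At Lef1 the D-EPSC H3K27ac peaks covered 5.90 kb of the locus outside start-site windows and there was none in L-EPSCs. Bnc2 had 85.9 against 54.4 kb and was the only gene of the 8 that was not called at equal covered bases.

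The largest L-EPSC differences were at Tiam1, Zbtb7c, Crtac1, Stox2, Tacc2, Prdm16, Afap1 and Tns1. Tiam1 (chr16:89787356-90144014), a Rac exchange factor, had 113.5 kb in L-EPSCs and 62.3 kb in D-EPSCs, and 23 of its 59 L-EPSC peaks were unshared against 1 of its 42 D-EPSC peaks. Stox2 (chr8:48265402-48437702) had 82.4 against 53.9 kb and Tacc2, a centrosomal protein gene, 68.1 against 40.3 kb. The actin-associated genes Afap1 and Tns1 had 36.3 against 11.8 and 62.5 against 38.4 kb. H3K27ac went the same way as H3K4me1 at all 8 loci, as it also did at all 8 D-EPSC loci. It covered 22.8 against 2.41 kb at Zbtb7c, 37.4 against 13.6 kb at Stox2 and 23.2 against 6.81 kb at Tacc2, with the L-EPSC value first. How often the 2 marks went the same way over all called genes is not given here, so this agreement cannot be called particular to these loci. The D-EPSC H3K27ac list was also the larger, 44.4 against 34.3 Mb. In ESCs Tns1 and Crtac1 had 116.9 and 100.6 kb of H3K4me1, more than in either EPSC list.

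**Figure D4:**
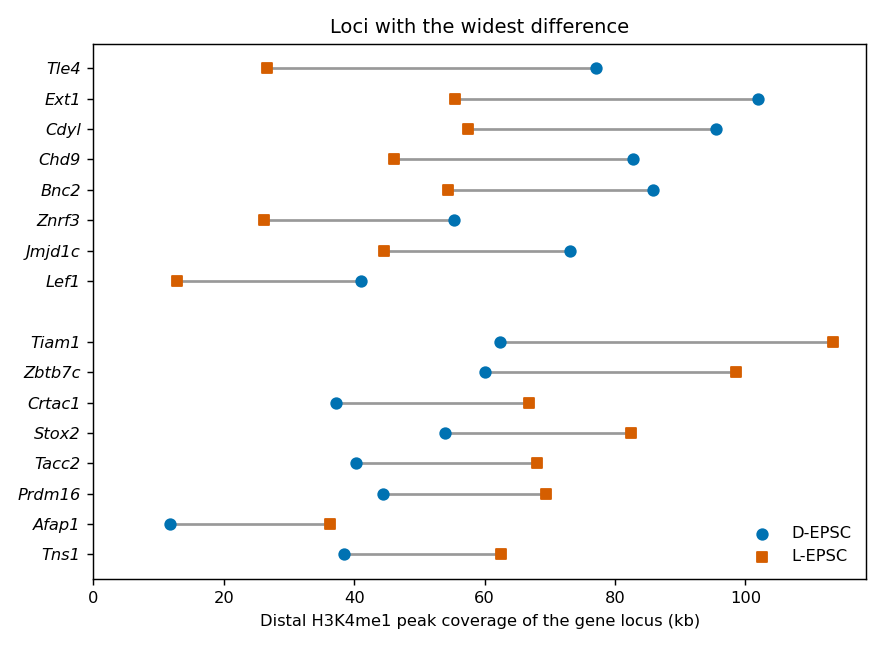
Distal H3K4me1 coverage (x axis, kb) of the 8 gene loci with the largest D-EPSC difference (upper block) and the 8 with the largest L-EPSC difference (lower block). Circles are D-EPSCs and squares L-EPSCs, 1 list each, and a grey line joins them. Lef1 runs from 12.8 kb in L-EPSCs to 41.1 kb in D-EPSCs, and Afap1 from 11.8 kb in D-EPSCs to 36.3 kb in L-EPSCs.

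In windows of 250 kb, unshared D-EPSC bases were densest at chr4:136000001-136250000, with 17.4 kb against 0 kb in L-EPSCs. The window holds Luzp1, Ephb2 and Kdm1a, the H3K4 demethylase LSD1. Next were the windows of Efnb2 on chromosome 8 (14.9 against 0 kb), Stag1 on chromosome 9 (15.2 against 1.01 kb), Ext1 on chromosome 15 (14.0 against 0 kb) and Nf2 on chromosome 11 (14.2 against 0.228 kb). Unshared L-EPSC bases were densest at chr6:88500001-88750000 with Mgll, 15.9 against 0 kb in D-EPSCs. The others held Abca1 (15.2 against 0 kb), Crtac1 (14.8 against 0.258 kb), Kit (12.4 against 0 kb) and Olig2 (14.1 against 1.81 kb).

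Lists of genes by role were then read against the 25.6% and 5.53% of callable genes, since most listed genes had the 2 kb needed. Of 15 core pluripotency genes, 2 were called toward D-EPSCs, 13.3% of those with 2 kb and so below 25.6%, and none toward L-EPSCs. The 2 were the RNA-binding protein gene Lin28a (15.9 against 8.07 kb) and Zfp281 (12.7 against 8.08 kb). The marker genes Pou5f1 (19.6 against 17.8 kb), Sox2 (17.3 against 16.7 kb), Nanog (18.3 against 17.0 kb) and Esrrb (84.2 against 85.6 kb) differed by less than 1.5-fold, although 13 of the 15 core genes had more coverage in D-EPSCs. At the start sites L-EPSC peaks covered more of Tdgf1, the Nodal co-receptor (259 against 1833 bp of the 2 kb window), of Dppa2 (1417 against 2001 bp) and of Utf1 (1193 against 2001 bp). At these 3 genes and Nanog the first base was covered in L-EPSCs only. Of 18 naive factors, 2 were called toward D-EPSCs, Sox15 (11.4 against 6.79 kb) and Nr0b1 (2.02 against 1.13 kb). They were 11.1% of those with 2 kb, also below 25.6%. Of 14 genes of feeder fibroblasts, from which the cells had been kept free for several passages before the assay, none was called in either direction. Their median coverage was 1.93 kb against 1.96 kb, 5 of them, Col3a1, Postn, Lum, Dcn and Acta2, had no start-site peak in either, and Lum and Dcn had no distal coverage.

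Genes of the formative and primed epiblast, the stage that follows naive pluripotency, were called toward D-EPSCs in 10 of 22, or 47.6% of the 21 with 2 kb, and toward L-EPSCs in none. Beside Lef1 they included Etv4, an ETS factor induced by ERK (19.8 against 6.46 kb), and Lin28b (21.6 against 10.7 kb). Also among them were Dnmt3b, a de novo DNA methyltransferase (11.9 against 3.49 kb), its cofactor Dnmt3l (15.5 against 9.01 kb), Fgf5 (3.04 against 0.722 kb) and Pou3f1 (4.80 against 2.17 kb). Dnmt3a, with 48.1 against 36.7 kb, was not called. At equal covered bases 10 were again called. D-EPSC H3K27ac covered 1.42 kb at Dnmt3b and 4.80 kb at Dnmt3l, against 0 and 0.474 kb in L-EPSCs. In ESCs the same loci had 10.8 kb and 17.1 kb of H3K4me1, near the D-EPSC values. Of 24 gastrulation and mesendoderm genes, 7 were called toward D-EPSCs, 31.8% of those with 2 kb. Msx2 (11.4 against 6.97 kb), Msx1 (11.1 against 6.89 kb) and Tbx6 (7.81 against 3.61 kb) came first. Of 20 neural ectoderm genes 6 were called toward D-EPSCs, 31.6% of those with 2 kb, led by Pax3 (17.0 against 3.37 kb), which had 4.14 kb in ESCs.

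Of 18 primitive endoderm genes, 5 were called toward L-EPSCs, 29.4% of those with 2 kb, and none toward D-EPSCs. Coverage was higher in D-EPSCs at 8 of the 18 and in L-EPSCs at 10. The lineage regulators Gata4 (13.96 against 11.9 kb), Gata6 (6.56 against 6.53 kb) and Hnf4a (9.98 against 8.07 kb) were not among the 5. Those with the largest differences encode basement membrane proteins. Col4a1 had 8.999 kb under D-EPSC peaks but 22.4 kb under L-EPSC peaks, its head-to-head neighbour Col4a2 9.54 and 22.8 kb, and Lama1 6.49 and 18.2 kb. Col4a1 and Col4a2 share part of their loci and are not independent. Dab2, an endocytic adaptor, had 2.07 against 3.16 kb. L-EPSC H3K27ac covered 3.25 kb of the Col4a1 locus against 0.519 kb in D-EPSCs, and the Lama1 locus had none in either. Start-site peaks of Hnf4a (556 bp) and Srgn (892 bp) were in L-EPSCs only and that of Cubn (824 bp) in D-EPSCs only. Fgfr2, annotated across 3 Mb in this release, had 328.5 against 295.3 kb, a value that describes the region rather than the gene. Of 21 trophoblast genes 1 was called in each direction, Krt18 (3.63 against 1.65 kb) toward D-EPSCs and Esx1 (1.91 against 3.16 kb) toward L-EPSCs. Each was 5.88% of those with 2 kb.

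Genes of the pathways that the media target were next. Of 27 ERK targets and feedback genes, 7 were called toward D-EPSCs, 25.9% and so at the background, and none toward L-EPSCs. At equal covered bases 5 were. Spred1, an inhibitor of Ras signaling, had 26.2 against 6.88 kb, Dusp4 12.02 against 7.59 kb, Etv1 13.2 against 7.90 kb, Egr1 5.76 against 3.00 kb and Fosl1 6.44 against 3.87 kb. Spred1 and Etv1 had a start-site peak in L-EPSCs only, of 310 and 855 bp, so start-site and distal peaks differed in opposite directions at both genes. Of 27 Wnt pathway genes, 9 were called toward D-EPSCs. They were the antagonists Axin1, Axin2 (14.6 against 7.05 kb), Apc (33.95 against 21.8 kb), Rnf43 and Znrf3, the receptor Lgr5 (9.21 against 5.13 kb), the ligand acyltransferase Porcn (9.64 against 3.46 kb) and the factors Lef1 and Sp8. Sfrp1, a secreted Wnt antagonist, was called toward L-EPSCs (7.08 against 12.7 kb), and Tcf7l2 was not called with 36.0 against 53.6 kb. Ctnnb1 had a start-site peak of 73 bp in D-EPSCs only. The 9 calls were 37.5% of the 24 Wnt genes with 2 kb, and at equal covered bases the calls were 6 and 2.

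**Figure D5:**
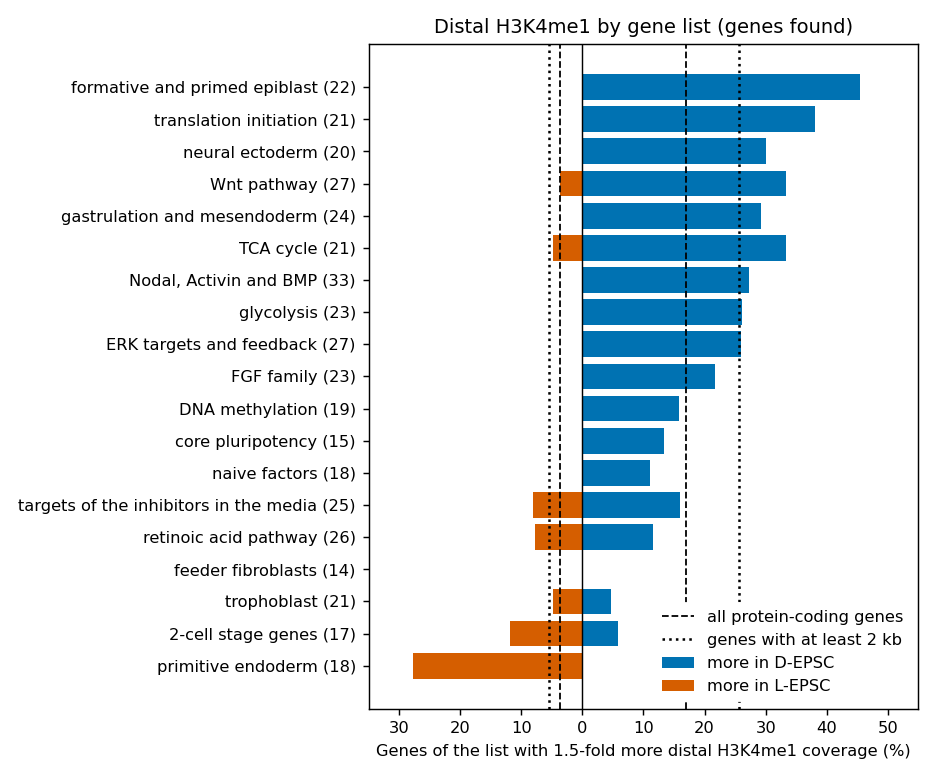
Share of the genes of each list (y axis, genes found in parentheses) with 1.5-fold more distal H3K4me1 coverage in D-EPSCs (blue, to the right) or L-EPSCs (orange, to the left), in percent. Dashed lines are the shares over all protein-coding genes, 17.0% and 3.66%, dotted lines those over genes with at least 2 kb, 25.6% and 5.53%, and the epiblast list lies farthest to the D-EPSC side and the primitive endoderm list farthest to the L-EPSC side.

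Of 25 targets of the inhibitors themselves, 4 were called toward D-EPSCs and 2 toward L-EPSCs. These were 17.4% and 8.70% of those with 2 kb, beside 25.6% and 5.53% over all callable genes. The Src family genes Yes1 (18.4 against 10.8 kb), Lck (19.3 against 11.3 kb) and Fgr (34.02 against 21.9 kb) and the tankyrase gene Tnks2 (14.6 against 8.70 kb) were higher in D-EPSCs. Blk (2.01 against 3.46 kb) and the muscarinic receptor gene Chrm3 (0.732 against 2.82 kb) were higher in L-EPSCs. In the retinoic acid pathway 3 of 26 genes were called toward D-EPSCs and 2 toward L-EPSCs, the latter being Dhrs3, which reduces retinaldehyde (5.62 against 17.1 kb), and the receptor gene Rarb (8.16 against 14.6 kb). H3K27ac covered 7.18 kb at Dhrs3 in L-EPSCs and 0.504 kb in D-EPSCs, whereas at Rarb it covered less in L-EPSCs, 1.55 against 3.67 kb. At equal covered bases the retinoic acid calls were 1 and 4. FGF family genes were called toward D-EPSCs in 5 of 23, with the adaptor Frs2 first (33.2 against 19.4 kb). The 5 were 23.8% of those with 2 kb, near the 25.6% over all callable genes. Nodal, Activin and BMP genes were called toward D-EPSCs in 9 of 33, among them the receptor Bmpr1a (31.1 against 16.3 kb) and Smad2 (16.8 against 9.02 kb), and Skil had a start-site peak in L-EPSCs only, of 261 bp.

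Of 19 symbols of 2-cell stage genes, 17 were found, and as Usp17la and Dub1 are the same entry they stood for 16 genes. Of these, 11 had no start-site peak in either condition and 5 no coverage of any kind. Distal coverage was higher in L-EPSCs at 8 and in D-EPSCs at 2, but it reached 2 kb at only 4 genes, and at Zscan4c it was 0 against 0.651 kb. Pramel6 and Pramel7, neighbouring genes of the preimplantation embryo on chromosome 2, were called toward L-EPSCs, with 1.44 against 9.87 kb and 1.502 against 7.39 kb. Pramel7 also had a start-site peak in L-EPSCs only, of 405 bp, and L-EPSC H3K27ac covered 5.70 kb of the Pramel6 locus where D-EPSCs had none. ESCs had 14.9 kb and 15.2 kb of H3K4me1 at these loci, which overlap in their flanks. Eif1a was called toward D-EPSCs (15.2 against 9.38 kb). DNA methylation genes were called toward D-EPSCs in 3 of 19, Dnmt3b, Dnmt3l and Mettl4 (5.94 against 2.63 kb). This was 15.8% of those with 2 kb and so below the 25.6% over all callable genes. Among housekeeping lists, glycolysis genes were called toward D-EPSCs in 6 of 23, with Pdk1 first (31.0 against 17.9 kb), and translation initiation genes in 8 of 21, with Eif4e (16.7 against 7.16 kb) and Eif5b (15.7 against 6.44 kb) first. Eif4g1 had a start-site peak in D-EPSCs only, and Eif5b and Eif2s3x had one in L-EPSCs only, of 191 and 9 bp. TCA cycle genes were called toward D-EPSCs in 7 of 21, and Sucla2 toward L-EPSCs (5.00 against 11.8 kb). Of the genes with 2 kb, the calls toward D-EPSCs were 26.1% in glycolysis, 33.3% in the TCA cycle and 8 of 20 in translation initiation, so shares above 25.6% were not limited to developmental and signaling genes.

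At equal covered bases the outcome depended on how the lists were matched. Keeping the widest 71963 D-EPSC peaks left 5455 unshared D-EPSC peaks, 7.58%, and 34552 unshared L-EPSC peaks, 32.8%, since this setting removes the narrow D-EPSC peaks. Shortening every D-EPSC peak at both ends left 18064 and 18297. Start sites with a peak in L-EPSCs only against D-EPSCs only were 1534 to 145 and 673 to 279, an order that these settings could only widen because both take bases from D-EPSC peaks alone. Genes called toward D-EPSCs still outnumbered those called toward L-EPSCs, by 2904 to 1436 and 2854 to 1110.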

How the data were processed

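Chromatin immunoprecipitation of H3K4me1 and H3K27ac was sequenced in ESCs, D-EPSCs and L-EPSCs, 2 samples per mark and state. The authors deposited 6 lists of peak positions, called with MACS in broad mode over input on reads aligned to mm9, with no score, count or signal column. Per the labels, Bowtie2 2.3.5, SAMtools 1.10, Trim Galore 0.6.3 and FastQC 0.10.1 were used. How the samples of a mark were combined, the peak threshold and the treatment of multi-mapping reads are not given in the sources used here, and depth is unknown. Positions, overlaps of 1 bp, coverage, CpG and motif matches were computed in Python 3.11.15 with NumPy 2.4.6 on the NCBIM37 sequence, and checked on simulated lists. GENCODE M1 gave 22350 protein-coding genes, and 3 of the listed symbols (Sox1, Tcstv1, Tcstv3) were not found. Where a symbol had several entries, the first was used. Named items were the 8 widest isolated start-site and distal peaks per condition, the 8 loci of at most 500 kb and 5 windows with the largest difference, and in each gene list those with the largest difference and those with a start-site peak in 1 condition. Lists, motifs and rules were chosen with earlier results of these data known. Further called genes of the lists, the 24-letter words, the B1 letters and the marked motifs were chosen after their values were seen. Some listed genes are not reported here.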

Additional observations from a re-analysis of the deposited data

How the results depend on the processing

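No paired analysis was possible because each state has 1 list, and for the same reason no replicate could be left out. Of 78 alternative values of the 8 counts, 58 stayed within 1.5 times the reported count. Unshared peaks numbered 27181 in D-EPSCs when 50% of a peak had to be covered, 40183 in D-EPSCs against 42738 when an overlap had to be 50% of both peaks, and 5455 against 34552 with the widest D-EPSC peaks at equal covered bases. The log2 ratio of unshared D-EPSC to L-EPSC peaks, −0.01 as reported, had no stable sign across settings. Under the same 3 settings it was 0.16, −0.089 and −2.66. It was −0.072 with peaks within 1 kb taken as shared, −0.17 with peaks joined over 1 kb, 0.15 with peaks of at least 500 bp and 0.18 at equal peak number.

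Unshared start-site peaks in D-EPSCs were 1721, 4777 and 85 under these first 3 settings, 695 with peaks of at least 500 bp and 787 with a wider start-site window. In L-EPSCs they were 967, 4356 and 2743, and 796 with the wider window. Start sites with a peak in 1 condition only were 145 and 1534 at equal bases, and 1584 in L-EPSCs with 500 bp around the start. Genes called by distal coverage were 1250 and 340 at 2-fold, and 1436 toward L-EPSCs at equal bases.

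The share of unshared peaks with H3K27ac of the same cells was 9.20%, 14.0% and 8.21% in D-EPSCs and 7.38%, 11.2% and 5.20% in L-EPSCs under the first 3 settings. It was 7.05% and 6.72% with peaks of at least 500 bp, and 3.95% in L-EPSCs with joined peaks. The share with an ESC peak was 66.5%, 72.5% and 71.7% in D-EPSCs and 51.6%, 68.5% and 55.8% in L-EPSCs. With peaks of at least 500 bp it was 69.3% and 57.1%, with peaks within 1 kb 55.4% and 41.6%, with joined peaks 53.9% and 42.1%, and 44.5% in L-EPSCs at equal peak number, so it was higher for D-EPSCs in each of these 6 settings with both values. Median widths were 690, 728 and 1000 bp in D-EPSCs and 594, 686 and 557 bp in L-EPSCs. They were 780 and 754 bp for peaks of at least 500 bp, 482 bp in D-EPSCs with shortened peaks and 524 bp in L-EPSCs at equal peak number. Leaving out Otx matches inside the 9 B1 letters, an alternative chosen after seeing the data, took the log2 ratio of the Otx shares from 0.86 to 0.65. It was 1.04 in a narrower and 0.76 in a wider central stretch. The cause of these moves was not tested.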
